A study of Cricetulus griseus with 27 samples.

Results

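The miR-34 family was followed through 27 small RNA libraries of CHO-K1 cells and of the vesicles these cells shed. Its members are the Chinese hamster entries cgr-miR-34a, cgr-miR-34b-5p and cgr-miR-34c-5p, chosen by name as p53-linked miRNAs, and they are 3 of the 4815 entries of the count table, of which 924 had at least 1 count. cgr-miR-34a had no count in any library. The other 2 members had counts and passed the filter on low counts in every fit, so no statement on tested members below covers cgr-miR-34a. Both arms of the miR-34b and miR-34c hairpins are described beside the members, since the table counts each arm separately.

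The miR-34 genes are direct transcriptional targets of p53 in human and mouse cells, and their products repress mRNAs of cell cycle and survival proteins such as cyclin-dependent kinases, MET and BCL2. miR-34a is made from a gene of its own, while miR-34b and miR-34c are cut from a shared primary transcript. The 5p arm of each hairpin carries the seed that defines the family, which the miR-449 miRNAs share, and the 3p arm is its partner strand with a different seed. In mammals miR-34b and miR-34c are best known from ciliated epithelia and testis. In the RefSeq annotation of the Chinese hamster assembly CriGri-PICRH-1.0, Mir34c and Mir34b lie next to each other between Hoatz and Btg4, and Mir34a lies between Gpr157 and H6pd.

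CHO-K1 is an epithelial-like ovary line used to produce recombinant proteins. The design crossed 3 fractions, namely exosomes (small vesicles of endosomal origin), MPs (microparticles, which are shed from the cell surface and are larger) and the cells themselves, with 3 cultures. The osmotic culture received 60 mM NaCl, which added 120 mOsm/L. The ammonia culture received 9 mM NH4Cl, and the standard culture received neither. All cultures were 15 mL in volume, held 6 mM glutamine and were harvested on day 3, per the labels' protocols. Each of the 9 groups has 3 libraries, labelled as biological replicates. The labels do not say whether these came from separate cultures, so the p-values measure the spread between these libraries, which may be technical. The 18 stressed libraries were made with a TruSeq small RNA kit and pooled together, and the 9 standard libraries were made with a NextFlex Combo-Seq kit for mRNA and miRNA and formed a pool of their own. In every value below that sets osmotic or ammonia against standard culture, the stress cannot be told apart from kit and pool. The labels do not describe how the fractions were separated. In bulk RNA, a lower level in every cell or vesicle and fewer cells or vesicles that hold the miRNA cannot be told apart.

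Library totals ran between 26516 and 158836 counts in osmotic exosomes, 116689 and 203816 in ammonia exosomes, 378397 and 2967003 in stressed MPs, and 5236151 and 10374430 in stressed cells. Standard exosomes and MPs held between 818539 and 2726446 counts, and standard cells between 132154 and 180764. The let-7 entries took 46.3% to 67.9% of the counts as group means in the stressed groups and 9.08% to 24.4% in the standard groups. A level is given in CPM (counts per 1000000 counts of the library), so a level in the stressed libraries is relative to a total that let-7 fills to a larger part. In stressed vesicle groups many miRNAs sat in a single library: of the entries with at least 30 counts in the group, 44.4% in osmotic exosomes, 46.4% in osmotic MPs, 45.1% in ammonia exosomes and 38.9% in ammonia MPs had 90% or more of their summed CPM in 1 of the 3 libraries. That share was 15.3% in osmotic cells, 22.3% in ammonia cells and at most 0.536% in the standard groups. Of 10 miRNAs known as markers of liver, neurons, muscle, leukocytes or erythroid cells and serum, 9 had a count and miR-142-3p had none. Summed over the list they reached 25.2 to 160.0 CPM in osmotic exosomes, 0.906 to 1702 CPM in osmotic MPs and 794 to 1433 CPM in osmotic cells. The sums were 34.3 to 9460 CPM in ammonia exosomes, 635 to 3114 CPM in ammonia MPs and 2440 to 3098 CPM in ammonia cells, and lay between 1528 and 2583 CPM in the standard groups. Most of this was miR-486-5p, and without it the highest stressed library stood at 104 CPM. The standard libraries without it stood higher, at 188 to 272 CPM in cells, 278 to 324 CPM in MPs and 375 to 484 CPM in exosomes. Most of that remainder was the muscle marker miR-499-5p, at 188 to 272 CPM in cells, 262 to 312 CPM in MPs and 364 to 446 CPM in exosomes. The part of these differences in the miR-34 values was not tested.

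cgr-miR-34a, the member with its own gene, stood at 0 in 27 of 27 libraries. Over all libraries, 0 of 66597290 counts allows a level of up to 0.0450 CPM, counting error only. The human, mouse and rat entries named miR-34a, which are all of the 3p arm, were also at 0. So were hsa-miR-34b-5p and all 11 entries named miR-449a, b or c. Of the 11 entries named miR-34a, b or c, 6 had counts, and these were cgr-miR-34b-5p with 3380 counts in all, cgr-miR-34b-3p with 519996, cgr-miR-34c-5p with 49460, cgr-miR-34c-3p with 23430, hsa-miR-34b-3p with 7015 and mmu-miR-34c-3p with 14. Summed over the libraries, the family was therefore counted mostly as the 3p arm of miR-34b.

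miR-34c-5p was the member with the higher counts, and its highest group means were in stressed cells. In osmotic cells cgr-miR-34c-5p stood at 1354, 2157 and 809 CPM (11130, 17865 and 8392 counts), and in ammonia cells at 894, 530 and 510 CPM (5155, 3623 and 2673 counts). In standard cells it stood at 7.57, 49.8 and 26.6 CPM, which are 1, 9 and 4 counts. Every stressed cell library was above every standard cell library, and osmotic and ammonia cells overlapped. By mean level it ranked 64th among all entries in osmotic cells, 78th in ammonia cells and 251st in standard cells.

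**Figure D1:**
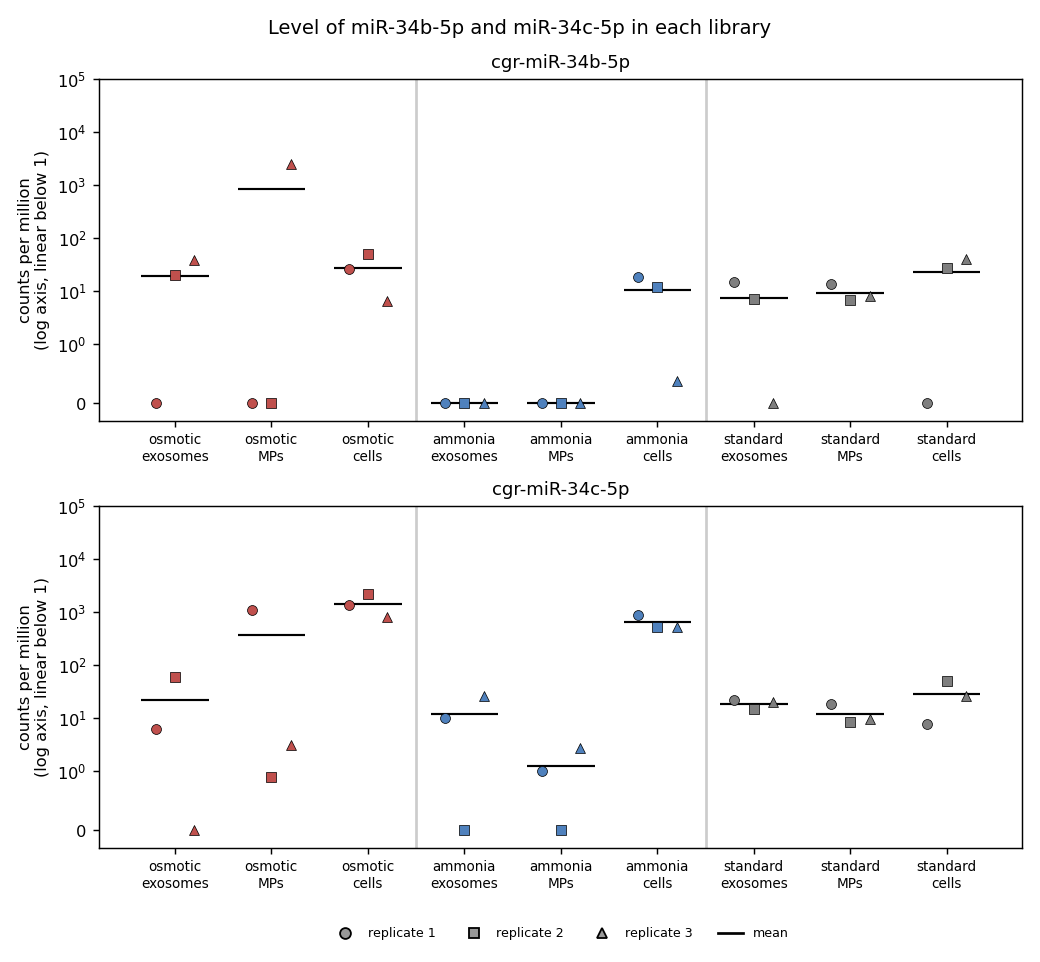
CPM of cgr-miR-34b-5p (top) and cgr-miR-34c-5p (bottom) in each of the 27 libraries, by group, on a log axis that is linear below 1, with the mean of each group as a black line. miR-34c-5p lies between 510 and 2157 CPM in the 6 stressed cell libraries, and 1 osmotic MP library carries nearly all of the group for each miRNA.

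The vesicles of the stressed cultures held little miR-34c-5p, with 1 exception. In osmotic exosomes it stood at 6.30, 60.0 and 0 CPM, which are 1, 3 and 0 counts, and in ammonia exosomes at 9.81, 0 and 25.7 CPM, which are 2, 0 and 3 counts. In osmotic MPs it stood at 1081, 0.906 and 3.08 CPM, which are 409, 1 and 3 counts, and in ammonia MPs at 1.01, 0 and 2.72 CPM, which are 3, 0 and 7 counts. The exception is replicate 1 of the osmotic MPs, which held 99.6% of the summed CPM of its group and lay within the range of the osmotic cells. In standard exosomes the levels were 21.4, 15.0 and 19.9 CPM and in standard MPs 18.3, 8.36 and 9.57 CPM, so the 3 standard fractions overlapped.

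Ordered by mean, miR-34c-5p was at 1440 ± 678 CPM in osmotic cells, 645 ± 216 in ammonia cells, 362 ± 623 in osmotic MPs, 28.0 ± 21.1 in standard cells, 22.1 ± 33.0 in osmotic exosomes, 18.8 ± 3.34 in standard exosomes, 12.1 ± 5.44 in standard MPs, 11.8 ± 13 in ammonia exosomes and 1.25 ± 1.38 in ammonia MPs (SD, n = 3 each). Each group overlapped with its neighbour in this order. One count was worth 4.91 to 8.57 CPM in ammonia exosomes and 6.30 to 37.7 CPM in osmotic exosomes, so each level above 0 there rests on 1 to 3 counts.

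Between fractions of the ammonia culture, miR-34c-5p fell in MPs. It averaged 1.25 ± 1.38 CPM in ammonia MPs and 645 ± 216 CPM in ammonia cells (SD, n = 3 each), and the groups did not overlap, as was the case for 41.0% of all 332 entries tested. The log2 fold change was −8.66 ± 2.74 (SE) with an adjusted p of 0.0232 in edgeR's quasi-likelihood test with Benjamini-Hochberg adjustment over all entries. Of the 2 tested members 1 was called, beside 32.5% of all tested entries. The call was lost without ammonia MPs replicate 1 (adjusted p = 0.0651) or replicate 2 (0.0778), at log2 fold changes of −8.63 and −7.85, and also with no filter on low counts (−6.13, 0.156). The ammonia MP level rests on 10 counts, and without replicate 3 the log2 fold change was −10.07 (adjusted p = 0.0437).

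In osmotic MPs against osmotic cells the same test gave −1.22 ± 1.99 with an adjusted p of 0.625, and no member was called where 51.5% of the entries were. That value turns on a single library: without osmotic MPs replicate 1 it was −8.45 with an adjusted p of 0.0416. With every library kept, the MP minus cell difference in osmotic culture exceeded that in ammonia culture by 7.44 ± 3.10 on the log2 scale and this did not pass (adjusted p = 0.122, 0.301% of the entries called). Without osmotic MPs replicate 1 the difference between the cultures was −0.0104 and was not called, so its sign was undetermined. No SE is given there, since its formula is unstable for so small a value. With all libraries DESeq2 called the difference between the cultures (adjusted p = 0.0143).

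Exosomes of both stressed cultures held less miR-34c-5p than their cells in every library, and neither difference passed. The log2 fold change was −5.89 ± 2.49 in osmotic exosomes against cells, with an adjusted p of 0.178, and −5.32 ± 2.43 in ammonia exosomes against cells, with an adjusted p of 0.102. No entry passed in the osmotic comparison (0.0% of 332, with 79 at an unadjusted p under 0.05) and 9.04% passed in the ammonia comparison. Groups that did not overlap were found for 64.2% and 58.7% of the entries in these comparisons. No alternative called either. No member was called in exosomes against MPs of the osmotic culture (2.41% of the entries called) or of the ammonia culture (0.301%) by edgeR. DESeq2 called miR-34c-5p higher in ammonia exosomes than in ammonia MPs (log2 fold change 6.53, adjusted p = 0.00495), where edgeR gave 3.34 with an adjusted p of 0.342. The exosome values of miR-34c-5p rest on 5 counts in all 3 ammonia libraries and 4 in all 3 osmotic libraries.

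In standard culture miR-34c-5p did not pass between fractions. It averaged 12.1 ± 5.44 CPM in MPs and 28.0 ± 21.1 CPM in cells (log2 fold change −1.37 ± 0.68, adjusted p = 0.132), and 18.8 ± 3.34 CPM in exosomes against the same cells (−0.85 ± 0.65, adjusted p = 0.305). No member was called in MPs against cells, exosomes against cells or exosomes against MPs, where 31.3%, 51.6% and 29.6% of 351 entries passed. The MP minus cell difference was lower in ammonia culture than in standard culture, by a difference of −7.22 ± 2.44 on the log2 scale (adjusted p = 0.0333, 21.9% of 420 entries called). That call was lost with the replicate block (adjusted p = 0.0615), without standard cells replicate 1 (0.0673) or 3 (0.0628) and without ammonia MPs replicate 1 (0.10), and the ammonia and standard libraries differ in kit and pool.

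**Figure D2:**
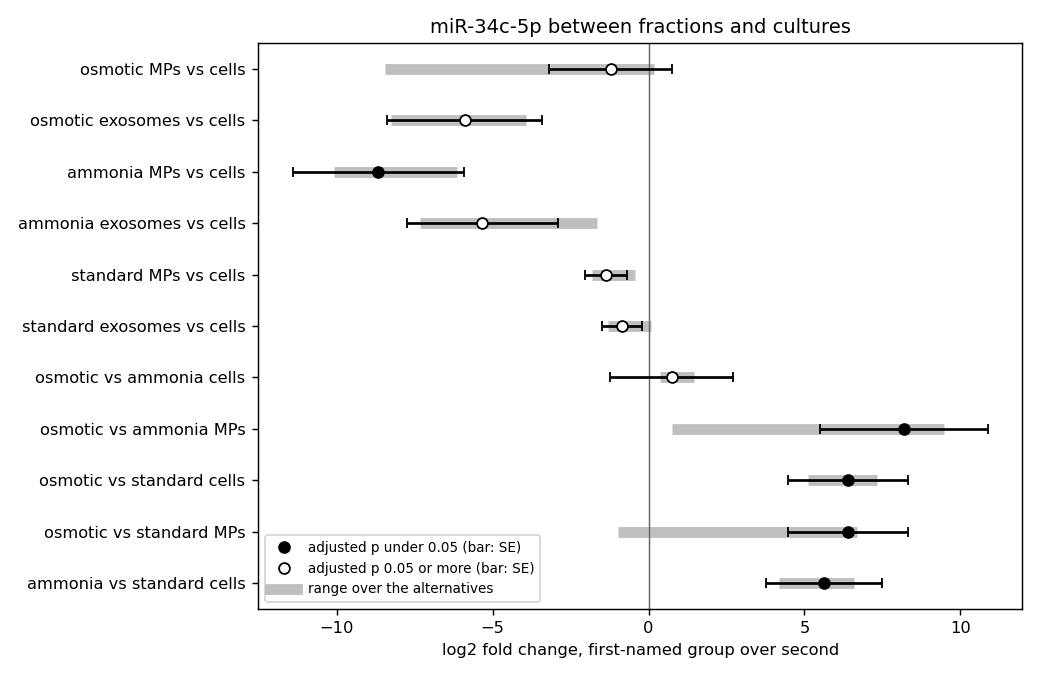
Log2 fold change of miR-34c-5p, first-named group over second, for 11 comparisons, with the SE as a black bar and the range over all alternatives run as a grey bar. Filled points have an adjusted p under 0.05, and the grey bars are widest where osmotic MPs enter, at −8.45 to 0.19 against cells, 0.75 to 9.47 against ammonia MPs and −0.99 to 6.69 against standard MPs.

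Between the stressed cultures, miR-34c-5p in cells did not pass the test. It averaged 1440 ± 678 CPM in osmotic cells and 645 ± 216 CPM in ammonia cells (log2 fold change 0.74 ± 1.97, adjusted p = 0.997), and 0.0% of the entries passed there, with 13 at an unadjusted p under 0.05. At the biological coefficients of variation of the fits with stressed libraries (1.38 and 1.12, against 0.30 in the standard fit), a missed threshold here and in the other comparisons of these libraries does not show that levels were equal. In MPs it averaged 362 ± 623 CPM in osmotic culture and 1.25 ± 1.38 CPM in ammonia culture (log2 fold change 8.18 ± 2.69, adjusted p = 0.0378), with overlapping groups. Both tested members were called in that comparison, and 19.3% of the entries were. Without osmotic MPs replicate 1 the log2 fold change was 0.75 with an adjusted p of 1.0, so the call rests on that library. It was also lost with the replicate block (adjusted p = 0.128), without replicate 2 (0.0727) or 3 (0.0724) of the osmotic MPs and without replicate 1 (0.106), 2 (0.102) or 3 (0.0640) of the ammonia MPs.

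Stressed cells held more miR-34c-5p than standard cells, a difference that cannot be told apart from kit and pool. The log2 fold change was 6.39 ± 1.94 in osmotic against standard cells (adjusted p = 0.0243) and 5.62 ± 1.87 in ammonia against standard cells (adjusted p = 0.0292). Of the 2 tested members 1 passed in each comparison, against 18.1% and 24.5% of 420 entries. The groups of cells did not overlap, as was the case for 56.9% and 55.7% of the entries. Both calls were lost without any 1 of the standard cell libraries, with adjusted p of 0.0648 to 0.0934 for osmotic and 0.0663 to 0.0992 for ammonia culture, and under other scalings given in the closing section. The lowest log2 fold change over the alternatives was 5.11 for osmotic and 4.18 for ammonia culture.

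In MPs, miR-34c-5p averaged 362 ± 623 CPM in osmotic culture and 12.1 ± 5.44 CPM in standard culture, with overlapping groups. The log2 fold change of 6.39 ± 1.92 passed (adjusted p = 0.0103), but without osmotic MPs replicate 1 it was −0.99 with an adjusted p of 0.564. Both tested members were called, against 46.2% of the entries. Ammonia MPs against standard MPs gave no call of a member (44.8% of the entries called), but miR-34b-5p, with no count in ammonia MPs and 9.37 ± 3.58 CPM in standard MPs, was called lower in 5 of 14 alternatives (adjusted p = 0.0886, and 0.00166 to 0.163 over the 14). Either stressed exosome group against standard exosomes (16.2% called for osmotic and 33.1% for ammonia) gave no call of a member, and neither did osmotic against ammonia exosomes (0.0%, with 61 entries at an unadjusted p under 0.05).

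miR-34b-5p was lower and more scattered. In cells cgr-miR-34b-5p stood at 25.9, 49.6 and 6.36 CPM in osmotic culture, at 18.6, 11.8 and 0.382 CPM in ammonia culture and at 0, 27.7 and 39.9 CPM in standard culture. The 3 groups of cells overlapped and no difference between them passed, with an adjusted p of 0.997 for osmotic against ammonia cells, 0.802 for osmotic against standard cells and 1.0 for ammonia against standard cells. In standard exosomes it stood at 14.9, 6.97 and 0 CPM and in standard MPs at 13.4, 6.69 and 7.98 CPM, within the range of the standard cells.

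In stressed vesicles miR-34b-5p had at most 1 count in all but 1 library. It had no count in the 3 ammonia exosome and the 3 ammonia MP libraries. In osmotic exosomes it had 0, 1 and 1 counts, which at the depth of these libraries are 0, 20.005 and 37.7 CPM and overlap with osmotic cells. In osmotic MPs it had 0, 0 and 2405 counts, so replicate 3 stood at 2472 CPM (exact 95% interval 2374 to 2572) and held all of the group's counts. Replicate 3 is not the library that held miR-34c-5p, and in it miR-34c-5p had 3 counts.

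By group mean, ammonia MPs were at least 25.6-fold lower than ammonia cells for miR-34b-5p, and this did not pass (adjusted p = 0.0810). The bound takes 3 counts over the group as the limit for ammonia MPs, which is 0.400 CPM. Ammonia cells replicate 3, at 0.382 CPM, was itself below that limit, so the bound does not hold for each library. For ammonia exosomes the depth allowed only a bound, also by group mean, of at least 1.62-fold lower than cells (adjusted p = 0.254). Osmotic MPs were at least 2059-fold higher than ammonia MPs with that limit (adjusted p = 0.0338), and 8.30 ± 2.77 higher on the log2 scale than standard MPs (adjusted p = 0.0200). Both calls rest on replicate 3 of the osmotic MPs, without which the log2 fold change against standard MPs was −6.78 (adjusted p = 0.131) and no count was left in either stressed MP group. Against standard MPs the call was also lost without replicate 1, 2 or 3 of the standard MPs and with the replicate block. Against ammonia MPs it was also lost with the replicate block (adjusted p = 0.0609), without osmotic MPs replicate 2 (0.0646) and without ammonia MPs replicate 1 (0.0602) or 3 (0.0507).

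The 3p arms showed other patterns. cgr-miR-34b-3p was abundant in nearly every library, and ranked between 14th and 38th among all entries by group mean. It stood at 11842, 1020 and 8863 CPM in osmotic exosomes, 7318, 15022 and 14347 CPM in osmotic MPs, and 5615, 5832 and 10240 CPM in osmotic cells. In ammonia culture it stood at 32220, 17804 and 68.6 CPM in exosomes, 11280, 14089 and 6951 CPM in MPs, and 6429, 8987 and 8923 CPM in cells. Replicate 3 of the ammonia exosomes, with 8 counts, was far below every other library. In the 9 standard libraries the range was 2913 to 5412 CPM.

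Within a culture, cgr-miR-34b-3p did not pass between any fractions. Against standard culture it rose in osmotic MPs (12229 ± 4267 CPM against 4809 ± 806 CPM, log2 fold change 2.97 ± 1.04, adjusted p = 0.0222). It also rose in ammonia MPs (10773 ± 3596 CPM against 4809 ± 806 CPM, 2.75 ± 1.03, adjusted p = 0.0337) and in ammonia exosomes (16697 ± 16104 CPM against 4317 ± 318 CPM, 2.71 ± 1.03, adjusted p = 0.0451), by the same test and with kit and pool changing too. Calls were made for 46.2%, 44.8% and 33.1% of the 420 entries in these comparisons, in that order. The ratios of mean CPM were 2.54, 2.24 and 3.87, less than these log2 fold changes give. The tests apply TMM scaling and the CPM values do not. The calls of cgr-miR-34b-3p were lost in 10, 11 and 9 of 15 alternatives, with log2 fold changes down to 1.35, 1.12 and 1.84.

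**Figure D3:**
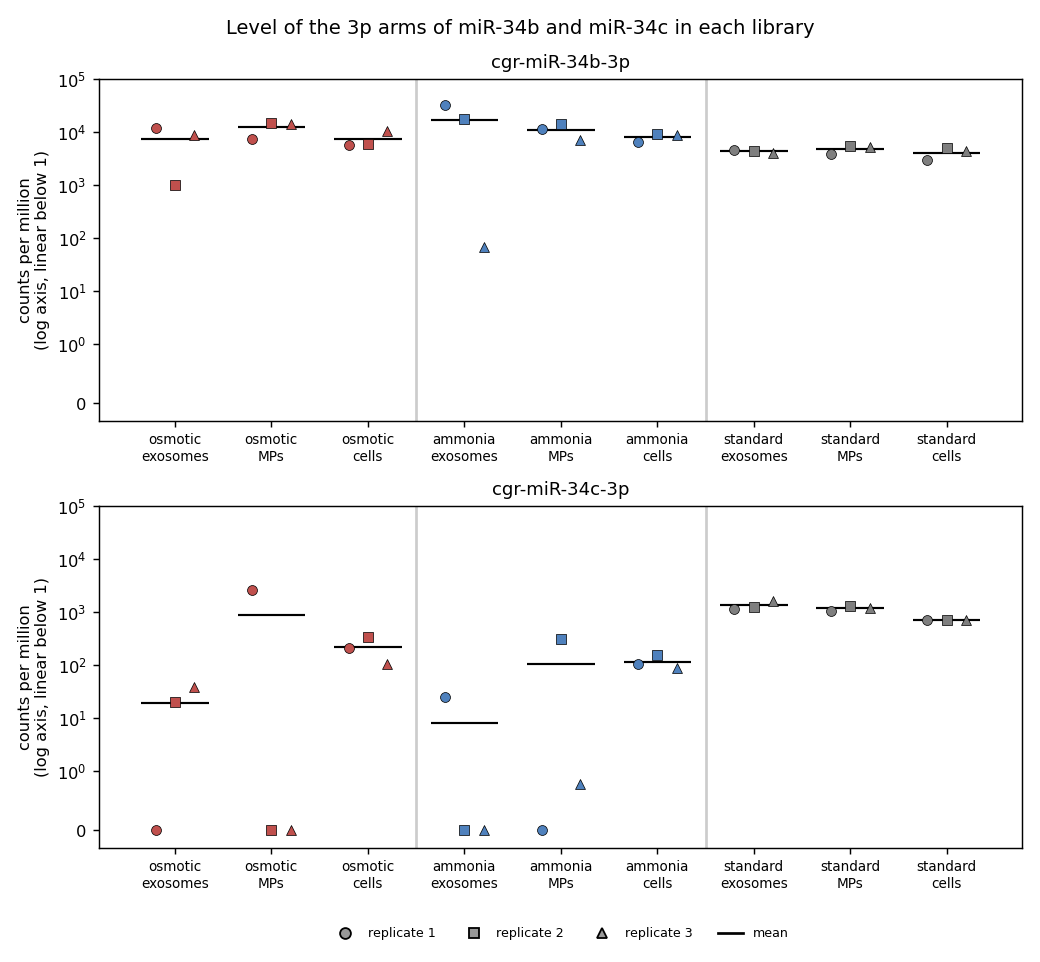
CPM of cgr-miR-34b-3p (top) and cgr-miR-34c-3p (bottom) in each of the 27 libraries, by group, on a log axis that is linear below 1, with group means as black lines. miR-34b-3p is at 1020 CPM or above in all but 1 library (68.6 CPM in ammonia exosomes), while miR-34c-3p lies between 708 and 1620 CPM in the standard libraries, higher in vesicles than in cells, and has at most 5 counts in 10 of the 12 stressed vesicle libraries.

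In standard culture cgr-miR-34c-3p stood at 1145, 1226 and 1620 CPM in exosomes, 1021, 1325 and 1176 CPM in MPs, and 711, 708 and 711 CPM in cells. Exosomes and MPs were both above cells without overlap, as was the case in either direction for 57.0% and 45.9% of the entries. It rose in standard MPs against cells (log2 fold change 0.67 ± 0.20, adjusted p = 0.0218) and in standard exosomes against cells (0.69 ± 0.20, adjusted p = 0.0127). Calls were made for 31.3% of all entries in MPs against cells and 51.6% in exosomes against cells. For cgr-miR-34c-3p the call in exosomes held in 15 of 15 alternatives and the call in MPs in 13 of 15. miR-34c-5p, from the same hairpin, had negative log2 fold changes in both comparisons and did not pass.

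In stressed cells cgr-miR-34c-3p stood at 206, 332 and 104 CPM in osmotic culture and at 104, 156 and 89.2 CPM in ammonia culture, below every standard cell library. Of 420 entries, 56.9% had no overlap in osmotic and 55.7% in ammonia against standard cells, in either direction and with kit and pool changing too. Neither difference from standard cells passed (adjusted p = 0.796 for osmotic and 0.605 for ammonia culture). In osmotic MPs it had 982, 0 and 0 counts, and in ammonia MPs 0, 602 and 2 counts. Replicate 1 of the osmotic MPs thus held both arms of miR-34c, while replicate 2 of the ammonia MPs held 602 counts of the 3p arm and none of the 5p arm.

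The share of the 5p arm among the counts of miR-34c set stressed and standard cells apart. It was 86.8%, 86.7% and 88.6% in osmotic cells and 89.6%, 77.2% and 85.1% in ammonia cells, against 1.05%, 6.57% and 3.60% in standard cells. The means were 87.3% ± 1.07 in osmotic, 84.0% ± 6.28 in ammonia and 3.74% ± 2.76 in standard cells (SD, n = 3 each). The groups of stressed and standard cells did not overlap. An exact two-sided permutation test gave p = 0.1 for osmotic and for ammonia against standard cells, the smallest that 3 against 3 libraries can give, and an adjusted p of 0.5 over 10 comparisons. Osmotic and ammonia cells overlapped (exact permutation p = 0.5). The kit differs between these groups and cannot be told apart from the stress.

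In the standard culture the 5p share of miR-34c was 1.21% to 1.84% in exosomes and 0.627% to 1.76% in MPs, so 5p was the minor arm in all 9 Combo-Seq libraries. In stressed vesicles the share could be read in few libraries. Replicate 1 of the osmotic MPs had 29.4% of 1391 counts (exact 95% interval 27.02% to 31.88%), far below the osmotic cells. Replicate 2 of the ammonia MPs had 0 of 602 counts, with an interval up to 0.611%. The other stressed vesicle libraries had at most 9 counts of both arms together.

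For miR-34b the 5p arm was the minor arm in all groups. Its share was 0.0621% to 0.844% in osmotic cells, 0.00428% to 0.288% in ammonia cells and 0% to 0.900% in standard cells, with overlapping groups and exact permutation p of 0.9 for osmotic and 0.4 for ammonia against standard cells. It reached 14.7% in replicate 3 of the osmotic MPs, the library with 2405 counts. The 5p arm thus led in stressed cells for miR-34c but not for miR-34b, the neighbouring hairpin, in the same libraries.

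**Figure D4:**
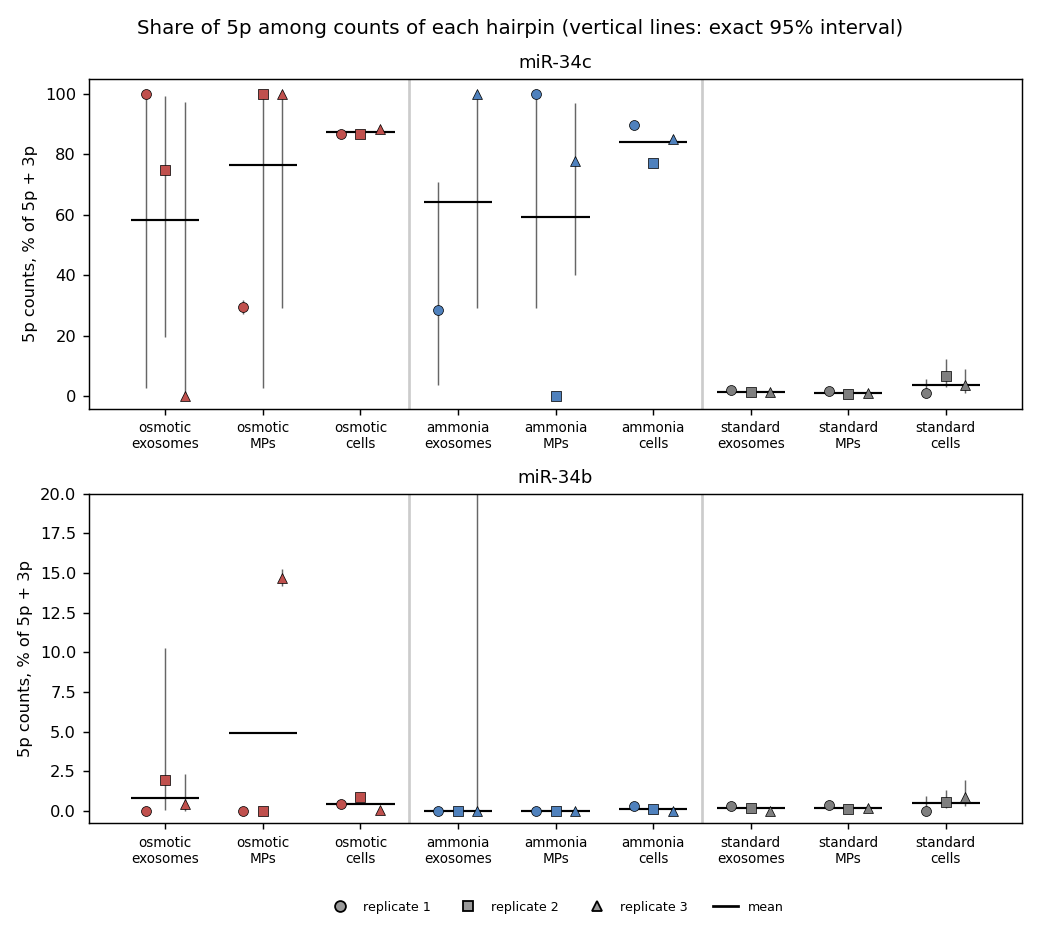
Share of 5p among the counts of both arms of miR-34c (top) and miR-34b (bottom, axis to 20%) in each library, in percent, with exact 95% intervals as thin lines (cut at the top of the lower axis for 1 ammonia exosome library with 8 counts) and group means as black lines. For miR-34c the 6 stressed cell libraries lie between 77.2% and 89.6% and the 9 standard libraries at 6.57% or below, while for miR-34b all libraries but 1 lie under 2%.

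Reads of one miRNA can be listed under several species. hsa-miR-34b-3p took 3.75% to 7.29% of the cgr and hsa counts of miR-34b-3p in the standard libraries, 0.155% to 1.56% in stressed cells and at most 0.108% in stressed MPs. Replicate 1 of the osmotic exosomes stood apart with 983 counts, 34.3% of both entries. With the 14 counts of mmu-miR-34c-3p added to the 3p arm, the mean 5p share of miR-34c in ammonia cells was 84.0% as before.

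Over the 27 libraries, after the mean of each kit was subtracted, mmu-miR-100-5p had the pattern most like miR-34c-5p among 415 other entries (Pearson r = 0.93 of log2(CPM + 1)), followed by cgr-miR-92b-3p (0.87) and cgr-miR-10a-3p (0.82). For miR-34b-5p these were cgr-miR-361 (0.75), cgr-miR-350-5p (0.66) and hsa-miR-4492 (0.55). miR-34c-5p itself followed its own 3p arm with r = 0.68 and miR-34b-5p with r = 0.23. On log2(CPM + 10) the third entry for miR-34c-5p was cgr-miR-369-3p (0.84), the order for miR-34b-5p was cgr-miR-350-5p (0.76), hsa-miR-4492 (0.75) and cgr-miR-361 (0.74), and r between both members was 0.058. The points share libraries, totals and many values at 0, and these correlations are descriptions only.

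Other p53-linked miRNAs ranged widely in abundance. Of a list of 12 (miRNAs induced by p53, and miR-16-5p, whose processing is known to be promoted with p53 in human cells), 9 had a count and 4 were tested, namely cgr-miR-192, cgr-miR-194, cgr-miR-107 and cgr-miR-16-5p. miR-16-5p had 423107 counts in all, against 10103 for miR-107, 7885 for miR-194-5p and 3365 for miR-192-5p, and the other 5 with a count had at most 143 each. In standard culture cgr-miR-194 rose in MPs (363 ± 91.3 CPM in MPs and 110 ± 30.1 CPM in cells, log2 fold change 1.67 ± 0.27, adjusted p = 3.46e-04). In standard exosomes against cells cgr-miR-194 rose by 2.05 ± 0.27 (adjusted p = 2.75e-05) and cgr-miR-192 by 2.30 ± 0.60 (adjusted p = 0.00588), and cgr-miR-16-5p fell by 0.74 ± 0.23 (adjusted p = 0.0160) on the log2 scale, a call lost in 3 of 15 alternatives. In standard exosomes against MPs cgr-miR-192 rose and cgr-miR-16-5p fell. Of all entries, 31.3% were called in MPs against cells, 51.6% in exosomes against cells and 29.6% in exosomes against MPs. The median log2 ratio of mean CPM in MPs against cells and exosomes against cells was 0.42 and 1.10 over the 4 miRNAs and 0.10 and 0.28 over all entries tested.

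In stressed vesicles cgr-miR-192 and cgr-miR-194 had no count in any of the 12 libraries. Of the 4 tested, 3 were lower in osmotic MPs than in cells by the test (cgr-miR-192, cgr-miR-194 and cgr-miR-107), as were 48.5% of all entries tested, and 2 were lower in ammonia MPs than in cells (cgr-miR-192 and cgr-miR-194), as were 31.0% of all entries. However, cgr-miR-192 had 38, 395 and 0 counts in ammonia cells, and cgr-miR-194 had 1028, 917 and 0 counts in osmotic cells. These groups of cells thus overlapped with the MPs. None of the 4 passed in exosomes against cells, where 0.0% of all entries passed in osmotic and 9.04% in ammonia culture. With groups at 0 set to a limit of 3 counts, the median log2 ratio of mean CPM was −6.01 over the 4 miRNAs and −4.37 over all entries in osmotic MPs against cells, and −3.41 and −1.74 in ammonia MPs against cells. In exosomes against cells these medians were −2.63 and −1.38 in osmotic culture and −2.38 and −2.51 in ammonia culture. The limit depends on the depth of each group. Between osmotic and ammonia cells none passed, as was the case for all entries (0.0% called). In ammonia against standard cells, where miR-34c-5p rose, cgr-miR-107 was at 238 ± 64.0 CPM in ammonia cells and 17.5 ± 4.78 CPM in standard cells (log2 fold change 4.87 ± 1.76, adjusted p = 0.04999), a call lost in 11 of 14 alternatives. By mean CPM, 2 of the 4 were higher and 2 lower in ammonia than in standard cells. Among the lower was cgr-miR-16-5p, at 1126 ± 369 CPM in ammonia and 36394 ± 4735 CPM in standard cells, which did not pass the same test (adjusted p = 0.133). In osmotic against standard cells none of the 4 passed, and 2 were higher and 2 lower by mean CPM. There cgr-miR-107 stood at 180 ± 36.6 CPM in osmotic cells (log2 fold change 4.14 ± 1.71, adjusted p = 0.0913). Of all entries, 24.5% were called in ammonia and 18.1% in osmotic against standard cells. Against standard MPs, 2 were lower in osmotic MPs (37.9% of all entries lower), and 2 were lower and 1 was higher in ammonia MPs (32.4% lower and 12.4% higher). The 1 called higher was cgr-miR-107, at 1.35, 0 and 337 CPM in ammonia MPs and 8.55 to 16.7 CPM in standard MPs. Its higher mean rests on replicate 3, and the other ammonia MP libraries were below every standard MP library. Against standard exosomes, 1 was lower in osmotic exosomes (12.1% of all entries lower) and 2 were lower in ammonia exosomes (26.4% lower). Between osmotic and ammonia MPs, cgr-miR-107 alone of the 4 passed, with no count in osmotic MPs and 4, 0 and 865 counts in ammonia MPs. Of all entries 19.3% were called there.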

How the data were processed

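Small RNA counts of 27 libraries (9 groups of 3) were analysed. The deposited table gives raw read counts per mature miRNA, which the authors made with reads grouped on the mature sequence, per the file headers, and a normalised signal per library that the authors call CPM, used here only to derive their effective library sizes. Per the submitters' processing notes, FastQC 0.10.1 and cutadapt 2.8 were used, with the builds GRCm38, GRCh38 and Rnor_6.0. The counter was not given in the sources used here.

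CPM here is the count over the library's summed count, without TMM scaling. The log2 fold changes of the tests can therefore differ from ratios of mean CPM. Tests were edgeR 4.0.16 quasi-likelihood F tests (R 4.3.3) with TMM scaling, filterByExpr by group and Benjamini-Hochberg adjustment over all entries tested, called at an adjusted p under 0.05, and the SE is the log2 fold change over the square root of F. This SE is unstable where the log2 fold change is small. The 9 standard (351 entries), 18 stressed (332) and all 27 libraries (420) were fitted separately. Biological coefficients of variation were 0.30, 1.38 and 1.12. Scripts were tested on simulated data. Shares of arms have exact (Clopper-Pearson) 95% intervals and exact permutation tests. Intervals and floors of 3 counts cover counting error only, since reads carry no molecular identifiers.

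Named were the members, every other miR-34 or miR-449 entry with counts, the p53-linked list and the 3 entries most like each member. Members and lists were chosen with earlier results of these data known, and which fold changes to print was chosen after their values were seen. No 2 libraries were identical. Replicate numbers were not used to pair libraries in the main tests, since the labels do not say whether they mark a shared culture. The authors' own comparison table was not used. No mature sequences are printed.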

Additional observations from a re-analysis of the deposited data

Results flagged for a closer look

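For cgr-miR-34c-5p the MP minus cell difference was itself different between ammonia and standard culture, by −7.22 on the log2 scale in a test of that difference (edgeR's quasi-likelihood test, adjusted p = 0.0333, 21.9% of the tested entries called). All 3 ammonia MP libraries were below all 3 ammonia cell libraries, a comparison in which 41.0% of 332 entries had no overlap in either direction. Standard MPs overlapped with standard cells, where 45.9% of 351 entries had no overlap. The standard cells held 1, 9 and 4 counts of cgr-miR-34c-5p. Over the alternatives the log2 difference between the cultures lay between −8.91 and −6.29 with an adjusted p of 0.00454 to 0.10. Kit and pool differ between the cultures and cannot be told apart from ammonia.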

How the results depend on the processing

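Of the alternatives run for counts of called members and for 5p shares, 383 left the value as it was within the limits set, 32 lost a call and 14 gained one. The share of all entries called under each alternative is not given here, so a gained or lost call cannot be read as particular to the members. With no filter on low counts, 1 member was called in osmotic MPs against cells, in ammonia against standard MPs and in the MP minus cell difference of osmotic minus ammonia and of osmotic minus standard culture, and 0 in ammonia MPs against cells and in ammonia against standard cells. RLE scaling and the authors' effective sizes called 0 in osmotic and in ammonia against standard cells and 1 in ammonia against standard MPs, and library size alone 0 in ammonia against standard cells and 1 in ammonia against standard MPs. DESeq2 called 1 in ammonia exosomes against MPs and 1 in the MP minus cell difference of osmotic minus ammonia culture. A fit of only the libraries compared called 1 in ammonia against standard MPs and 1 in the exosome minus cell difference of osmotic minus standard culture.

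The labels do not say whether libraries with the same replicate number share a source. In 0 of 18 comparisons did all same-numbered pairs correlate over 0.1 (range −0.30 to 0.19). With so few libraries per group this cannot exclude pairing. With the replicate block, 0 members were called in osmotic against ammonia MPs, 1 in osmotic against standard MPs and 0 in the MP minus cell difference of ammonia minus standard culture, and no other count of called members changed.

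Leaving out 1 replicate at a time gave 0 to 1 members called in osmotic MPs against cells, ammonia MPs against cells, osmotic against ammonia MPs, either stress against standard cells and the MP minus cell difference of ammonia minus standard culture, 1 to 2 in osmotic against standard MPs and 0 to 2 in the MP minus cell difference of osmotic minus standard culture. For miR-34c-5p the log2 fold change ran between −1.28 and 0.075 in standard exosomes against cells and between −0.99 and 6.69 in osmotic against standard MPs, and for miR-34b-5p between −6.78 and 8.83 in osmotic against standard MPs. The MP minus cell difference of miR-34c-5p in osmotic minus ammonia culture ran between −0.0104 and 8.83. With no filter, miR-34c-5p in osmotic MPs against cells was 0.19 on the log2 scale. The cause was not tested. Other scalings moved the median log2 fold change of all entries by −1.56 to 3.67, over 0.1 in 11 to 15 of 18 comparisons. With let-7 left out of the totals, miR-34c-5p averaged 3128 CPM in osmotic cells and 2047 CPM in ammonia cells. DESeq2 gave no adjusted p for miR-34b-5p in osmotic against ammonia or standard MPs. Totals of 26516 to 203816 counts in stressed exosomes limit what can be read there for both members.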
